A study of Ovis aries with 6 samples.

Results

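The Ion_trans family comprises pore-forming subunits of cation channels. Of 96 rows that carried this family entry in the deposited gene table of 26425 rows, 95 are described here. The row of CNGA3, a cyclic nucleotide-gated channel subunit, was left out of the set. RNA was sequenced from sheep (Ovis aries) cells of the stromal vascular fraction of fat, the mixture of non-adipocyte cells that includes adipocyte precursors, and the sample labels call the cell type adipocyte. Of 6 libraries, 3 came from cells overexpressing MEOX2, a homeobox transcription factor, and 3 from control cells labelled NC. Column names of both groups carried the prefix pHBLV. Breed, age and culture stage were not given in the sources used here, nor was how MEOX2 expression was driven, and nothing stated whether replicates came from separate animals or cultures, so p-values measure only the spread between these libraries.

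Channels of this family open a pore across a membrane in response to voltage, ligands, stretch or temperature. Voltage-gated potassium channels and the large-conductance calcium-activated channel set the resting potential and repolarise cells. Voltage-gated calcium and sodium channels depolarise them, and most TRP channels are cation channels that admit calcium. Inositol trisphosphate receptors release calcium from the endoplasmic reticulum. In adipocyte precursors and fat cells, calcium entry and membrane potential are known to bear on proliferation and differentiation.

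Levels were deposited as FPKM, in which reads are divided by the length of the gene and the size of the library. Totals of the whole reads recovered from them ran from 11772772 to 12230863. MEOX2 itself averaged 132.9 ± 23.0 FPKM in overexpressing libraries, against 9.98 ± 0.910 FPKM in NC libraries (SD, n = 3 each). Of 6 adipocyte markers (ADIPOQ, FABP4, PLIN1, CIDEC, LPL and PPARG, listed as PPARG2), 5 passed the limma test as lower with MEOX2 and LPL did not. Among all genes tested, 1.16% passed as lower. The summed level of the 6 adipocyte markers was 125.6 to 147.9 FPKM in MEOX2 libraries, against 297.3 to 352.2 FPKM in NC libraries. None of 6 stromal progenitor markers passed the test, where 2.67% of all genes tested passed. COL1A1, the highest of these markers, averaged 10594 FPKM in MEOX2 libraries, against 9410 FPKM in NC libraries. CD34, the lowest, averaged 0.642 and 1.37 FPKM in MEOX2 and NC. PDGFRA lay higher and CD34 lower with MEOX2 without overlap, and COL1A1, PDGFRB, THY1 and DPP4 overlapped. Of all tested genes, 18.9% did not overlap. CD34 reached a mean of 1 FPKM only through its NC libraries, so its values are no support for a fall. In the second principal component, which held 22.2% of the variance, NC library 3 stood apart from the other libraries. In bulk RNA, fewer cells of a type and less RNA per cell cannot be told apart.

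A minority of the members of the family reached a mean of 1 FPKM. Of the 95, 31 had no read in any library, 23 had 1 to 14 reads over the 6 libraries, 15 had at least 20 reads but a mean under 1 FPKM, and 26 reached a mean of 1 FPKM. The 26 were 27.4% of the members, whereas 49.7% of all rows of the table reached that mean. The share without any read was closer, at 32.6% of the members and 29.1% of all rows. For the members at 0, the limit that a count of 0 allows, 3 reads in a library, corresponds to between 0.0407 and 0.239 FPKM depending on gene length, covering counting error only.

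TRP channels supplied the largest part of the family's signal in these libraries. Summed over the 19 TRP members, the level was 65.4, 60.9 and 59.9 FPKM in MEOX2 libraries 1 to 3 and 54.7, 49.8 and 54.6 FPKM in NC libraries 1 to 3. The groups did not overlap. Over all 6 libraries TRP members made up 44.2% of the summed FPKM of the family, potassium channels 11.6%, calcium channels 11.5%, sodium channels 8.43% and cyclic nucleotide-regulated channels 1.74%. Unnamed rows made up 8.10%. Among them 2 rows, with means of 5.62 and 3.58 FPKM, flank a T-type calcium channel row and were not counted as calcium. The order of the calcium and potassium shares is therefore not settled. The potassium class was the largest by membership, with 34 genes, and summed to 14.96 ± 0.960 FPKM with MEOX2, against 15.2 ± 0.803 FPKM in NC libraries. The 6 calcium members summed to 14.98 ± 1.42 FPKM with MEOX2 and 14.9 ± 0.106 FPKM in NC (SD, n = 3 each). The 11 sodium channel members summed to 13.2, 12.1 and 11.6 FPKM in MEOX2 libraries, against 9.14, 7.82 and 12.1 FPKM in NC libraries, where NC library 3 reached the MEOX2 range.

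**Figure D1:**
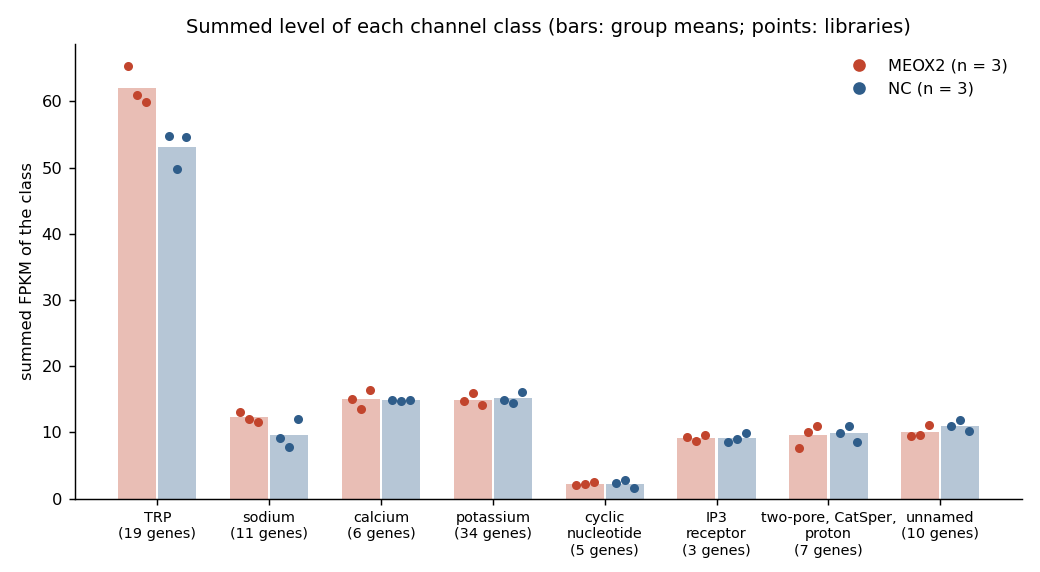
Summed FPKM (y axis, linear) of the Ion_trans members of each class, with MEOX2 libraries to the left of NC libraries; bars are group means and points are libraries. TRP members lie between 59.9 and 65.4 FPKM with MEOX2 and between 49.8 and 54.7 FPKM in NC, while the potassium and calcium sums of the groups overlap.

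The highest single member was TRPC4, a receptor-operated calcium-permeable channel, which ranked 5932 among all rows by mean FPKM. It was followed by TRPM4, a calcium-activated channel that conducts sodium rather than calcium, and TRPM7, a magnesium- and calcium-permeable channel fused to a kinase. The sodium channel SCN1A and the receptor ITPR1 had lower means than these 3. The library values of ITPR1, a T-type calcium channel row and KCNMA1 overlapped one another, so no order among these 3 is given.

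**Figure D2:**
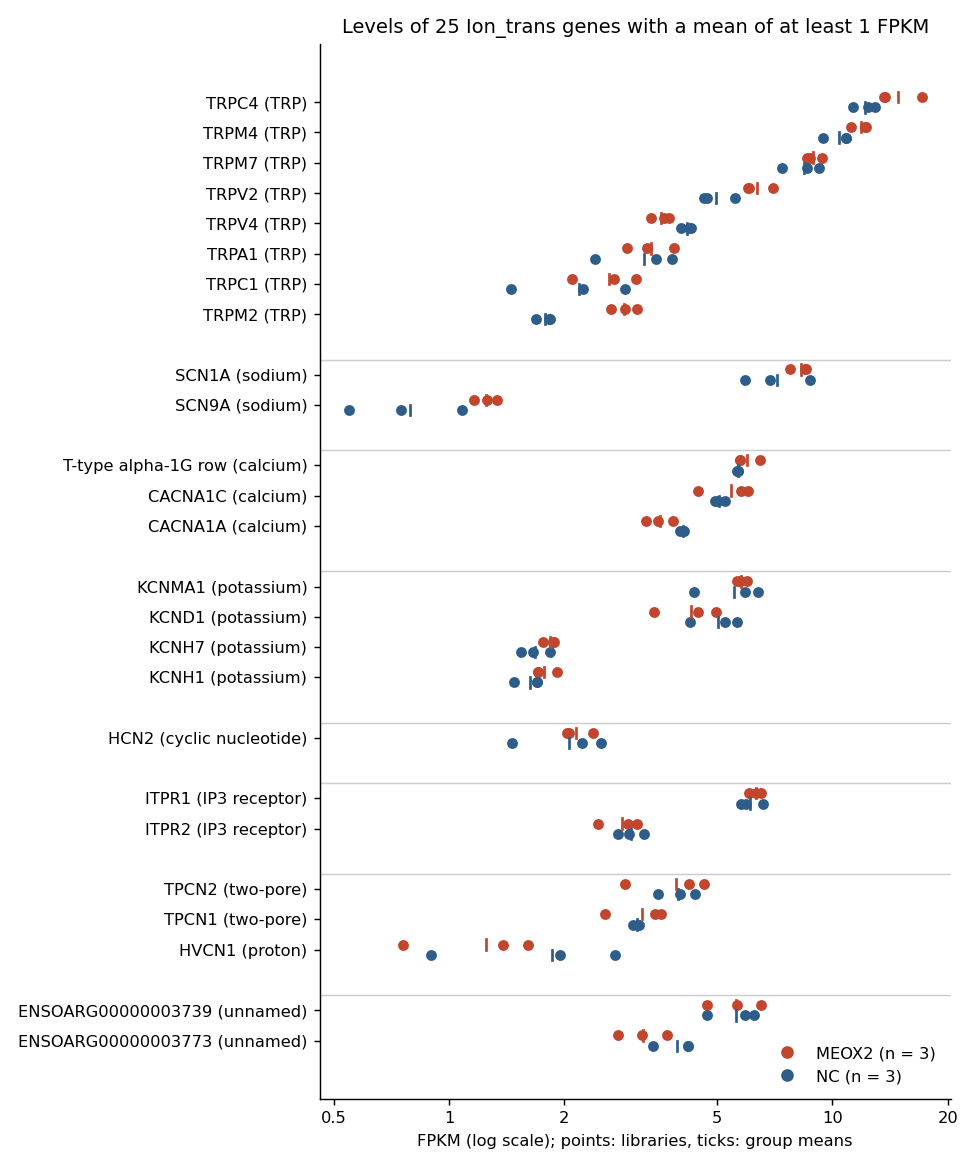
FPKM on a log axis of 25 members with a mean of at least 1 FPKM, by class, with MEOX2 libraries above NC libraries in each row; points are libraries and ticks are group means. TRPC4 and TRPM4 stand highest, and TRPM2, TRPV2 and SCN9A are among the genes whose groups do not overlap.

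The study set MEOX2 overexpression against NC to find genes that differed. With limma on log2(FPKM + 1), none of the 26 tested members passed an adjusted p of 0.05. Of the 13121 genes tested, 2.67% passed, 1.51% as higher with MEOX2 and 1.16% as lower. The smallest adjusted p was 0.112, for TRPM2. Of the members, 4 had an unadjusted p under 0.05, against 13.4% of all genes. CNGA3, the row left out, averaged 4.96 ± 0.393 FPKM with MEOX2 and 0.468 ± 0.0724 FPKM in NC (SD, n = 3 each), with a limma adjusted p of 0.00019. It reached a mean of 1 FPKM only through its MEOX2 libraries, so that p is no support for a rise. Adding 1 FPKM before taking logarithms damps low genes, and most channels are low. Limma voom was therefore also run on the recovered reads, where 1 FPKM is not added. Of the 26 members, 2 passed, both higher and TRPM2 among them, where 4.37% of all genes tested passed (2.36% higher and 2.02% lower). A voom fit of all rows with at least 20 reads, chosen after seeing the data, took in 41 members. Of these, 4 passed, all higher with MEOX2 and SCN7A, TRPM2 and KCNS3 among them, where 4.09% of all rows tested passed (2.22% higher and 1.87% lower). KCNS3 reached 20 reads only through its MEOX2 libraries.

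Of the 26 tested members, 18 had a log2 change above 0 and 8 below, with a median of 0.07. Over all tested genes 49.3% had a change above 0 and the median was -0.00273. The values of the groups did not overlap for 10 of the 26, with 8 higher and 2 lower, where 18.9% of all tested genes did not overlap (9.6% higher and 9.33% lower). Among the 41 members with at least 20 reads, 14 did not overlap, 11 higher and 3 lower, where 18.7% of such rows did not (9.54% higher and 9.17% lower). Of the higher ones, KCNS3 (17 reads with MEOX2 and 3 in NC) and NALCN (19 and 4) reached 20 reads only through MEOX2 libraries. Likewise SCN9A, with means of 1.25 FPKM with MEOX2 and 0.793 FPKM in NC, reached 1 FPKM only through MEOX2 libraries. Genes admitted by a filter because they are high in the MEOX2 group are no support for a rise. An exact permutation test of 3 against 3 libraries cannot give a p below 0.1. Of the 9 tested TRP members, 8 had a change above 0, and 5 were higher and 1 lower without overlap. The standard errors of the 26 log2 changes lay between 0.09 and 0.26.

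TRPM2, a calcium-permeable channel opened by ADP-ribose and oxidative stress (chromosome 1, 262471005 to 262521700, plus strand, in the deposited coordinates, whose build no source used here names), was at 3.09, 2.64 and 2.87 FPKM in MEOX2 libraries, against 1.69, 1.82 and 1.84 FPKM in NC libraries. Every MEOX2 library lay above every NC library, on 161 to 172 reads with MEOX2 and 99 to 111 reads in NC. The log2(FPKM + 1) change was 0.48 (SE 0.13, 95% interval 0.18 to 0.77), and the limma adjusted p was 0.112. On reads, the log2 change was 0.68 (SE 0.14) and TRPM2 was higher with MEOX2 (limma voom over the rows with at least 20 reads, adjusted p = 0.00462). That call held with each library left out in turn, with adjusted p values from 0.00587 to 0.0441. It was also made by limma without an intensity trend (adjusted p = 0.0393). Of the 17 planned fits, 2 made the call. With any 1 library left out its limma adjusted p was between 0.151 and 0.321. With the replicate number as a block its limma adjusted p was 0.221.

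TRPC4 (chromosome 10, 24289442 to 24435384, plus strand) was at 17.1, 13.7 and 13.7 FPKM with MEOX2, against 12.9, 11.3 and 12.4 FPKM in NC. TRPV2, a channel activated by heat and membrane stretch, was at 7.02, 6.03 and 6.05 FPKM with MEOX2 and 4.70, 5.57 and 4.63 FPKM in NC. TRPM4 was at 12.3, 12.2 and 11.2 FPKM with MEOX2, against 10.8, 10.9 and 9.46 FPKM in NC. For all 3 the MEOX2 libraries lay above the NC libraries, the means differed by 1.22, 1.28 and 1.14-fold, and none passed the test (limma adjusted p = 0.347, 0.267 and 0.482).

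TRPV4, an osmotically and mechanically activated calcium channel, was lower in every MEOX2 library. It was at 3.64, 3.36 and 3.75 FPKM in MEOX2 libraries, against 4.29, 4.03 and 4.23 FPKM in NC libraries, without overlap. Its log2 change was -0.18 (SE 0.11; limma adjusted p = 0.552). TRPM7 averaged 8.92 ± 0.409 FPKM with MEOX2 and 8.41 ± 0.927 FPKM in NC, and TRPA1, a sensor of electrophilic irritants, 3.36 ± 0.482 FPKM with MEOX2 and 3.23 ± 0.738 FPKM in NC. TRPC1, a subunit that joins other TRPC proteins, averaged 2.62 ± 0.4995 FPKM with MEOX2 and 2.19 ± 0.714 FPKM in NC (SD, n = 3 each). The groups overlapped for TRPM7, TRPA1 and TRPC1. The intervals of their log2 changes, for example -0.24 to 0.64 for TRPC1, do not show equal levels.

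**Figure D3:**
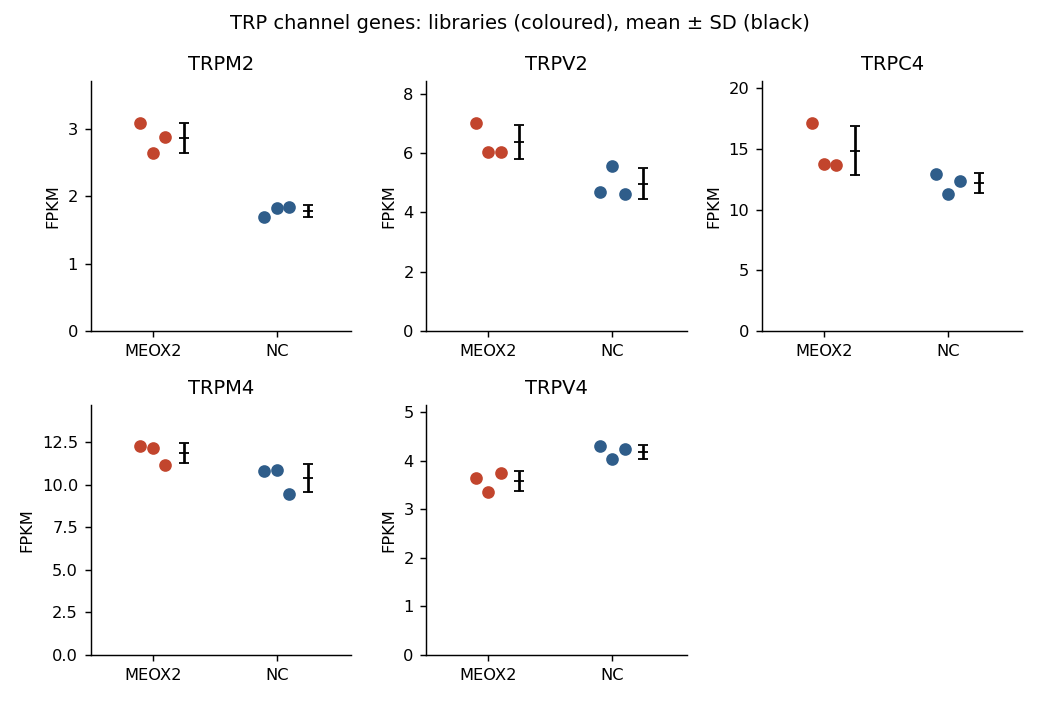
FPKM of 5 TRP genes whose groups do not overlap; coloured points are libraries, MEOX2 left of NC, and black marks are means ± SD (n = 3 each). TRPM2, TRPV2, TRPC4 and TRPM4 lie higher with MEOX2, and TRPV4 lies lower at 3.36 to 3.75 against 4.03 to 4.29 FPKM.

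Of the other 10 TRP members, TRPM6 (0.364 ± 0.157 FPKM with MEOX2 and 0.403 ± 0.147 FPKM in NC) and TRPM3 (0.0773 ± 0.0229 and 0.154 ± 0.0742 FPKM in MEOX2 and NC) had at least 20 reads. TRPC7 and TRPV6 had 3 and 1 reads in all. TRPC5, TRPC6, TRPV3, TRPV5, TRPM1 and TRPM8, the cold and menthol receptor, had none.

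Sodium channel genes differed by gene. SCN7A encodes a sodium channel relative known as a sensor of extracellular sodium rather than of voltage. It was at 1.36, 0.945 and 0.913 FPKM in MEOX2 libraries, against 0.245, 0.160 and 0.571 FPKM in NC libraries, a 3.30-fold difference of the means. All MEOX2 libraries lay above all NC libraries, and NC library 3 was the highest of its group. The reads were 79, 60 and 57 with MEOX2 and 15, 10 and 36 in NC. With a mean under 1 FPKM over the 6 libraries SCN7A was outside the main test. On reads it was higher with MEOX2 (limma voom over rows with at least 20 reads, log2 change 1.86, SE 0.34, adjusted p = 0.00130). It passed with each library left out in turn, with changes from 1.46 to 2.36 and adjusted p values up to 0.0124. With limma on log2(FPKM + 1) it did not pass when rows down to 0.1 FPKM were admitted (adjusted p = 0.123).

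SCN7A lies in a row of 5 sodium channel genes on chromosome 2, from 141958107 to 143329091 in the deposited coordinates, in the order SCN7A, SCN9A, SCN1A, SCN2A and SCN3A. SCN9A, a channel best known from pain-sensing neurons, was at 1.34, 1.16 and 1.26 FPKM with MEOX2 and 0.748, 0.547 and 1.08 FPKM in NC. Its groups did not overlap, its limma adjusted p was 0.469, and on reads its log2 change was 0.70 (SE 0.21; limma voom, adjusted p = 0.0581). The change on reads depended on single NC libraries. It was 0.96 (adjusted p = 0.00569) without NC library 3, in which SCN9A was highest among the controls, and 0.46 (adjusted p = 0.279) without NC library 2, in which it was lowest. With any of the other 4 libraries left out it missed the threshold (limma voom adjusted p from 0.0784 to 0.189).

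SCN1A, a brain sodium channel, had the highest level of the 5, at 8.56, 8.48 and 7.75 FPKM with MEOX2 and 6.88, 5.90 and 8.72 FPKM in NC. NC library 3 was above every MEOX2 library. It did not pass by limma (adjusted p = 0.605) or on reads (limma voom, log2 change 0.22, adjusted p = 0.429). On reads the change was 0.37 without NC library 3, which passed (adjusted p = 0.0290), and 0.09 without NC library 2 (adjusted p = 0.777). By limma it did not pass without NC library 3 either (adjusted p = 0.205). SCN2A was at 1.11, 0.833 and 1.07 FPKM with MEOX2 and 0.724, 0.710 and 1.07 FPKM in NC, and SCN3A at 0.336, 0.267 and 0.122 FPKM with MEOX2 and 0.166, 0.176 and 0.175 FPKM in NC. Both overlapped. These genes are close in sequence, and how the authors' counting assigned reads that match several of them is not given in the sources used here.

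Between SCN1A and SCN2A lies TTC21B, a ciliary transport protein that is no channel and was in none of the fixed lists. It averaged 16.4 FPKM in MEOX2 libraries, against 13.1 FPKM in NC libraries. Its groups did not overlap, and its limma adjusted p was 0.202. GALNT3 and CSRNP3 lie in the same gap, on 17 and 15 reads in all, too few to compare. GALNT3 was higher with MEOX2 without overlap, and CSRNP3 overlapped.

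**Figure D4:**
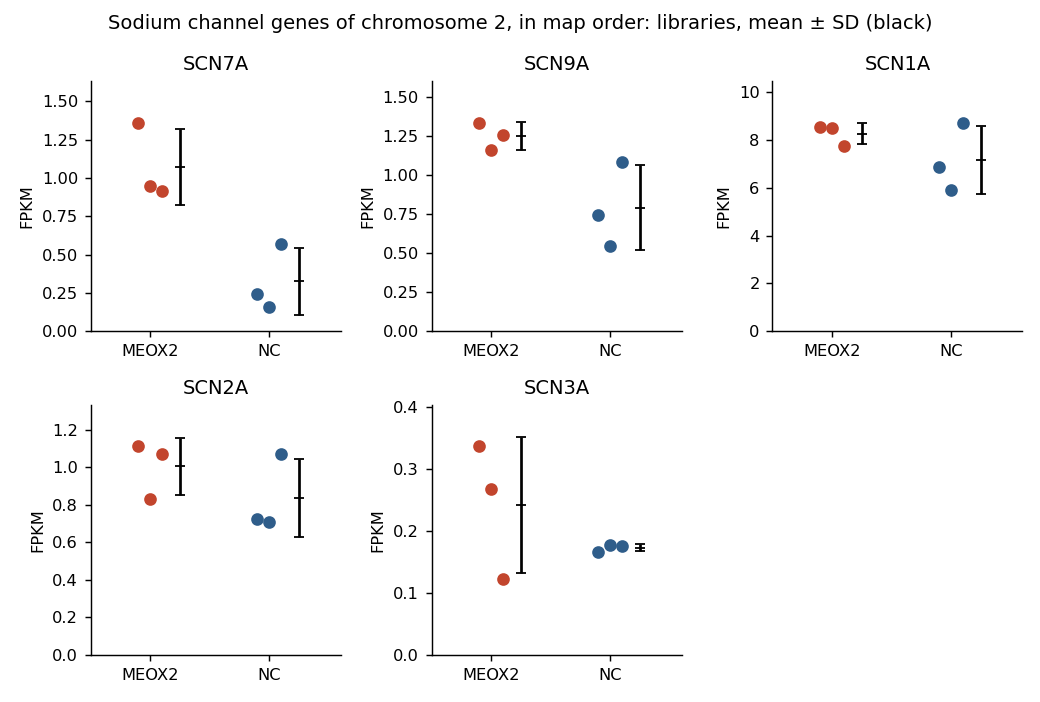
FPKM of the 5 sodium channel genes of chromosome 2 in map order; coloured points are libraries, MEOX2 left of NC, and black marks are means ± SD (n = 3 each). The groups are separate for SCN7A and SCN9A and overlap for SCN1A, SCN2A and SCN3A, and NC library 3 (the rightmost NC point) is the highest of its group for SCN7A, SCN9A, SCN1A and SCN2A.

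Outside that row, SCN8A averaged 0.310 ± 0.111 FPKM with MEOX2, against 0.348 ± 0.0678 FPKM in NC. NALCN, the sodium leak channel, had 8, 6 and 5 reads in MEOX2 libraries and 0, 2 and 2 in NC libraries (limma voom, log2 change 2.22, SE 0.70, adjusted p = 0.0843). SCN11A had 9 reads in all. SCN4A and SCN10A, the muscle and sensory neuron channels, had none.

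Markers of cell types in which sodium channels are best known were counted beside these genes. Of 6 Schwann cell and glial markers, 1 had no read, and SOX10 and GFAP averaged at most 0.0205 FPKM in either group. S100B averaged 129.5 FPKM in MEOX2 libraries, against 144.5 FPKM in NC libraries, and made up nearly all of that list's sum, which was 119.2 to 155.0 FPKM in MEOX2 libraries and 139.2 to 151.3 FPKM in NC libraries. MBP, the other tested marker of the list, averaged 2.59 ± 0.747 FPKM in MEOX2 libraries, against 1.62 ± 0.464 FPKM in NC libraries (SD, n = 3 each). Its log2 change was 0.45, its limma adjusted p was 0.372 and its groups overlapped. Of 7 neuronal markers 5 were matched; ELAVL4 had no read, and the sum was 3.42 to 3.65 FPKM with MEOX2 and 3.20 to 4.399 FPKM in NC, mostly SNAP25. Of 7 matched skeletal and cardiac muscle markers MYH1, TNNT2, MYOD1 and MYOG had no read, and the sum was at most 0.135 FPKM in MEOX2 libraries and 0.275 FPKM in NC libraries. No marker of these 3 lists passed the test, where 2.67% of all genes tested passed.

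Of 6 matched smooth muscle and pericyte markers 4 were tested, and CNN1 and CSPG4 passed as higher with MEOX2. Among all genes tested, 1.51% passed as higher. TAGLN, which made up most of the sum, lay higher without overlap. It did not pass by limma (adjusted p = 0.0819) and passed on reads (limma voom, adjusted p = 0.0432). MYH11 overlapped (limma adjusted p = 0.935). The sum of the list was 575.8 to 613.3 FPKM with MEOX2 and 478.0 to 490.5 FPKM in NC. Of the endothelial markers, EGFL7 alone reached 1 FPKM, and the sum was 1.90 to 3.36 FPKM with MEOX2, against 1.71 to 3.18 FPKM in NC libraries. The leukocyte sum was 10.5 to 13.2 FPKM with MEOX2, against 12.9 to 14.4 FPKM in NC libraries. Its members differed in direction. CD163 averaged 1.38 FPKM with MEOX2 and 2.32 FPKM in NC, lower without overlap (limma adjusted p = 0.170, limma voom adjusted p = 0.0142). CD68 averaged 7.57 and 9.37 FPKM, LAPTM5 2.34 and 1.59 FPKM and CSF1R 0.203 and 0.0660 FPKM in MEOX2 and NC, with overlap. The part of these marker genes in the channel differences was not tested.

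Voltage-gated calcium channels were present and none passed the test. CACNA1C, the pore of the L-type channel, averaged 5.43 ± 0.834 FPKM with MEOX2 and 5.07 ± 0.153 FPKM in NC (SD, n = 3 each). A row that the authors' description names as the T-type subunit alpha-1G (chromosome 11, 35658110 to 35667749, minus strand) was at 5.76, 5.76 and 6.46 FPKM with MEOX2 and 5.69, 5.69 and 5.64 FPKM in NC. These groups did not overlap, by a margin smaller than the spread among MEOX2 libraries, and the limma adjusted p was 0.856. CACNA1A, the pore of the P/Q-type channel, was at 3.52, 3.27 and 3.84 FPKM in MEOX2 libraries, against 4.09, 4.11 and 4.01 FPKM in NC libraries, lower without overlap (log2 change -0.16, SE 0.11, limma adjusted p = 0.609). CACNA1D had 8 reads in all, CACNA1F 6, and CACNA1I none.

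Either side of the T-type row, on the same strand, lie 2 unnamed Ion_trans rows, between ABCC3 and SPATA20. RefSeq places CACNA1G and a long non-coding RNA between these neighbours on its assembly ARS-UI_Ramb_v3.0. ENSOARG00000003739 averaged 5.62 ± 0.896 FPKM with MEOX2 and 5.62 ± 0.817 FPKM in NC, and ENSOARG00000003773 3.22 ± 0.481 and 3.94 ± 0.463 FPKM in MEOX2 and NC. Whether the 3 rows are pieces of 1 gene was not tested. Of the other 8 unnamed rows, ENSOARG00000003036 on chromosome 15 was at 0.675, 0.571 and 0.581 FPKM in MEOX2 libraries, against 1.04, 0.744 and 0.760 FPKM in NC libraries, lower without overlap (limma voom, adjusted p = 0.486). ENSOARG00000014614 had at least 20 reads and overlapped, 5 had 1 to 13 reads and 1 had none.

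Of 34 potassium channel members, 4 reached 1 FPKM and 16 had no read. KCNMA1, the large-conductance calcium-activated channel, was at 5.74, 5.99 and 5.66 FPKM with MEOX2 and 4.36, 5.91 and 6.39 FPKM in NC, and the MEOX2 values lay within the NC range. Its log2 change was 0.07 with a 95% interval of -0.24 to 0.37, and other rows of the table overlap it, as they do KCNH7 and ITPR1. KCND1, which carries fast transient potassium current, averaged 4.29 ± 0.783 FPKM with MEOX2 and 5.04 ± 0.723 FPKM in NC (log2 change -0.20, limma adjusted p = 0.653). KCNH7, an ERG-type channel, averaged 1.84 ± 0.0700 and 1.68 ± 0.151 FPKM in MEOX2 and NC, and KCNH1, an EAG-type channel, 1.78 ± 0.117 and 1.62 ± 0.123 FPKM in MEOX2 and NC (SD, n = 3 each). KCNH1 did not overlap between groups, but its lowest MEOX2 and highest NC library both rounded to 1.70 FPKM.

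KCNS3, a silent subunit that modifies other potassium channels, had 3, 7 and 7 reads in MEOX2 libraries and 3, 0 and 0 in NC libraries. The ratio of the summed reads, scaled to library size, was 5.75 with an exact (Clopper-Pearson) 95% counting interval of 1.66 to 30.6. It passed as higher with MEOX2 on reads (limma voom, log2 change 2.64, SE 0.75, adjusted p = 0.0472) and lost that call without MEOX2 library 2 or 3 or NC library 2 or 3. Its 20 reads in all, 17 with MEOX2 and 3 in NC, are the fewest that this fit admits. KCNS3 thus entered the fit through the group where it is high, so the call is no support for a rise. With limma on log2(FPKM + 1) and rows down to 0.1 FPKM it did not pass (adjusted p = 0.430). A further 12 potassium members, KCNG2, KCNQ1 and KCNH3 the highest among them, had 2 to 14 reads in all. The 16 at 0 included KCNA1, KCNA2 and KCNA4, delayed rectifier or transient channels of excitable cells.

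HCN2, a pacemaker channel, averaged 2.15 ± 0.191 FPKM with MEOX2 and 2.06 ± 0.534 FPKM in NC. HCN3 was at 0.114 and 0.189 FPKM on average in MEOX2 and NC, CNGA4 had 1 read, and CNGA1 and CNGA2 had none. Among receptors and channels of internal membranes, ITPR1 averaged 6.31 ± 0.229 FPKM with MEOX2 and 6.11 ± 0.425 FPKM in NC, and ITPR2 2.82 ± 0.332 and 2.98 ± 0.230 FPKM in MEOX2 and NC. ITPR3 was near 0, at 0.0674 and 0.0380 FPKM in MEOX2 and NC. TPCN1 and TPCN2, endolysosomal channels, averaged 3.19 ± 0.551 and 3.91 ± 0.919 FPKM with MEOX2 and 3.09 ± 0.0566 and 3.97 ± 0.437 FPKM in NC. HVCN1, the voltage-gated proton channel, rested on 7 to 27 reads per library and averaged 1.25 ± 0.441 FPKM with MEOX2, against 1.85 ± 0.912 FPKM in NC libraries. The sperm channel genes CATSPER2 and CATSPER3 had 1 to 25 reads per library, and CATSPER1 and CATSPER4 none. None of HCN2, ITPR1, ITPR2, TPCN1, TPCN2 and HVCN1 passed by limma, and the other genes of this paragraph were below its filter.

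**Figure D5:**
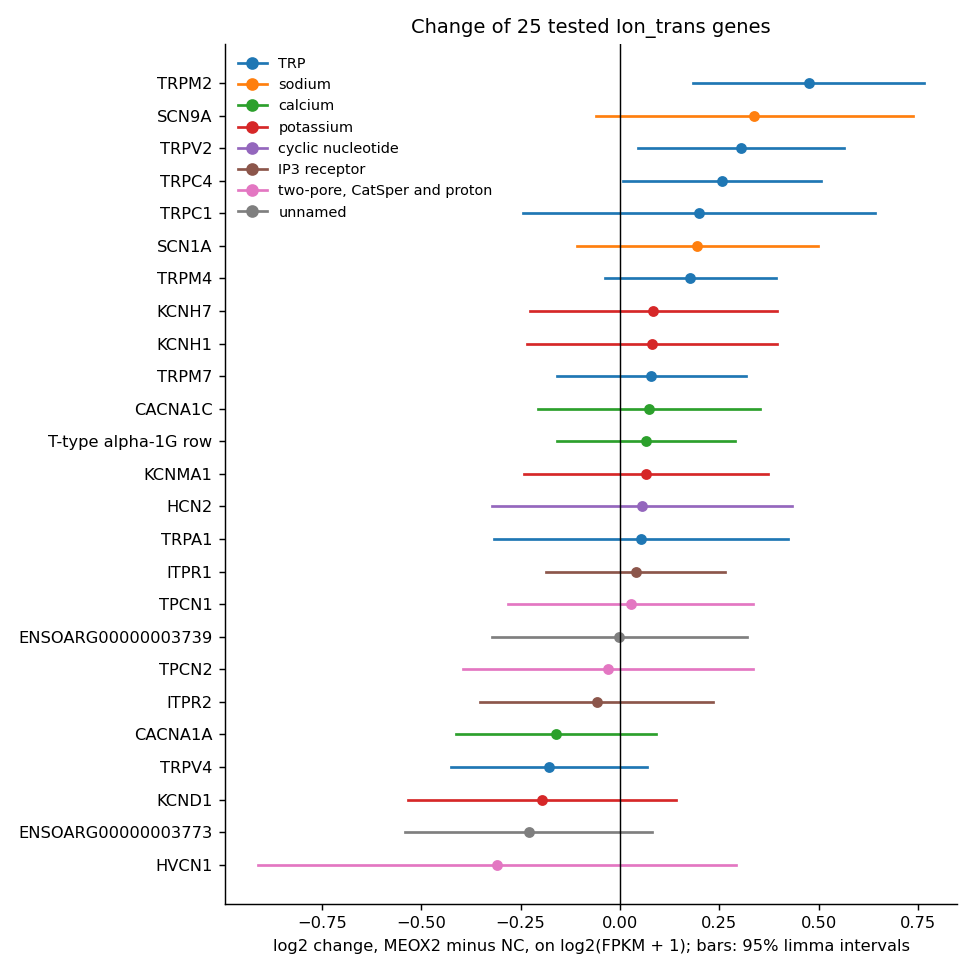
Log2 change on the log2(FPKM + 1) scale (x axis, MEOX2 minus NC) of 25 tested members, with 95% limma intervals, coloured by class. TRPM2 has the largest change drawn, 0.48, and 22 of the intervals include 0.

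Channel genes outside the family were taken from 5 lists with 155 symbols, of which 127 were matched to other rows and 56 tested. Of these 56, 1 passed as higher with MEOX2 and none as lower, where 2.67% of all genes tested passed (1.51% higher). Of the 56, 7 had an unadjusted limma p under 0.05, against 13.4% of all genes. The median change was 0.03. PIEZO2, a mechanically gated channel, was at 2.36, 1.98 and 2.27 FPKM in MEOX2 libraries, against 0.997, 0.978 and 1.04 FPKM in NC libraries. It rose 2.19-fold in FPKM (log2(FPKM + 1) change 0.67, SE 0.14, limma adjusted p = 0.0457), but with any 1 library left out its limma adjusted p was between 0.0871 and 0.167. On reads its adjusted p was 3.03e-06 (limma voom over rows with at least 20 reads). With each library left out of that fit in turn it passed, with limma voom adjusted p values from 1.32e-06 to 5.54e-05.

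STIM1, the endoplasmic reticulum calcium sensor that opens ORAI channels, was at 10.4, 8.83 and 9.63 FPKM with MEOX2 and 5.94, 7.55 and 5.49 FPKM in NC, without overlap. It missed the threshold in the main test (log2 change 0.54, SE 0.13, limma adjusted p = 0.0662) and passed on reads (limma voom, adjusted p = 0.00675). Its partners ORAI1 (12.1 ± 1.19 FPKM with MEOX2 and 10.5 ± 0.542 FPKM in NC) and ORAI3 (9.28 ± 0.731 and 8.03 ± 0.748 FPKM in MEOX2 and NC) did not pass in either fit. PIEZO2 and STIM1 belonged to the list of store-operated and mechanosensitive channels and calcium transport, in which 1 of 17 tested genes rose and 16 were not called, against the same 1.51% of all genes called higher. PKD2, a polycystin channel chosen after its values were seen, stood above any Ion_trans member, with means of 32.2 FPKM in MEOX2 libraries and 33.3 FPKM in NC libraries.

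None of 6 inward rectifier and K2P potassium channels passed by limma and none of 9 on reads. Among all genes tested 2.67% passed by limma, and 4.09% of all rows with at least 20 reads passed on reads. Against 13.4% of all genes, 2 of the 6 had an unadjusted limma p under 0.05. KCNK12, a K2P channel, averaged 11.8 ± 2.32 FPKM with MEOX2 and 8.78 ± 0.230 FPKM in NC. KCNJ8, the pore of vascular ATP-sensitive channels, averaged 1.24 ± 0.0786 FPKM with MEOX2 and 1.85 ± 0.107 FPKM in NC. KCNK1 and KCNJ3 averaged 3.21 and 2.59 FPKM with MEOX2 and 4.92 and 3.52 FPKM in NC. The limma change of KCNK1, -0.45, was -0.71 without NC library 3, which passed (adjusted p = 0.0491), and -0.26 without NC library 1 (adjusted p = 0.7999). On reads KCNK1 did not pass without NC library 3 (limma voom, adjusted p = 0.0713).

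None of 8 potassium channel auxiliary subunits passed by limma, where 2.67% of all genes tested passed. Against 13.4% of all genes, 1 of the 8 had an unadjusted limma p under 0.05. That was KCNAB2, a beta subunit of voltage-gated channels, with a mean of 14.5 ± 1.35 FPKM in MEOX2 libraries, against 10.998 ± 1.47 FPKM in NC libraries (SD, n = 3 each). KCNAB1, ABCC9 and KCNIP1, the next by p, averaged 0.904, 7.38 and 1.69 FPKM with MEOX2 and 1.52, 8.52 and 1.18 FPKM in NC. KCNMB1 and KCNMB4, beta subunits of the KCNMA1 channel chosen after their values were seen, averaged 10.5 and 10.8 FPKM with MEOX2 and 10.97 and 11.97 FPKM in NC. None of 6 calcium and sodium channel auxiliary subunits passed by limma, against the same 2.67% of all genes. None of the 6 had an unadjusted limma p under 0.05, against 13.4% of all genes. None of 9 passed on reads, where 4.09% of all rows with at least 20 reads passed. CACNB4, a calcium channel beta subunit below the filter of the limma test and chosen after its values were seen, averaged 0.364 ± 0.116 FPKM with MEOX2 and 0.999 ± 0.214 FPKM in NC (SD, n = 3 each), lower without overlap. Its log2 change on reads was -1.41 (SE 0.42; limma voom, adjusted p = 0.0618). CACNB3, CACNA2D1, CACNB1 and CACNB2, auxiliary subunits of calcium channels, averaged 34.4, 10.5, 3.86 and 3.11 FPKM with MEOX2 and 34.03, 10.96, 3.34 and 3.28 FPKM in NC. None of 19 chloride channel genes passed by limma and none of 23 on reads, against the same 2.67% and 4.09%. Against 13.4% of all genes, 2 of the 19 had an unadjusted limma p under 0.05. CLIC4 averaged 159.3 ± 3.98 FPKM with MEOX2 and 135.7 ± 8.41 FPKM in NC, and LRRC8C, a subunit of the volume-regulated anion channel, 6.85 ± 0.545 FPKM with MEOX2 and 4.81 ± 1.33 FPKM in NC (SD, n = 3 each). LRRC8C passed as higher without NC library 3 (limma adjusted p = 0.0452) and not with any other library left out (adjusted p from 0.342 to 0.571). ANO5 and CLCN7, the next by p, averaged 8.67 and 5.39 FPKM with MEOX2 and 7.18 and 4.12 FPKM in NC.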

How the data were processed

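Per the labels' protocols, TRIzol was used to isolate RNA and a NEBNext Ultra kit to prepare libraries. The submitters' processing notes name, without roles, the tools fastp, DESeq2 1.20.0, featureCounts 1.5.0-p3, CASAVA 1.8 and HISAT2 2.0.5. No source used here names the genome build, annotation or strand setting. The authors deposited 1 table of FPKM values. Multiplied by gene length, these gave whole reads in every library (100% of nonzero values, within 0.001 read), and the library sizes they imply were used for voom.

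Genes averaging at least 1 FPKM (13121) were fitted as log2(FPKM + 1) with limma 3.58.1 in R 4.3.3, with an intensity trend and no covariates. Adjustment was by Benjamini-Hochberg over all of them, with a threshold of 0.05. Limma voom on recovered reads was an alternative. The fits were tested on simulated data. Python 3.11.15, pandas 2.3.3 and matplotlib 3.10.9 did the rest.

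Of the 95 members, 19 overlap another row, and reads of overlapping or closely related genes may be split between them. Gene lengths are multiples of 3 for 76.8% of members. Named genes were the members past the filter or with at least 20 reads and, per list, the called genes and up to 4 with the smallest p. Of 209 list and marker symbols, 177 matched by symbol, 1 by a former symbol and 31 not at all. Members and lists were chosen with earlier results of these data known. Some of the counted genes are not reported here by name.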

Additional observations from a re-analysis of the deposited data

How the results depend on the processing

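Of all tested genes, 350 passed; 194 passed without a filter on low values, 574 with voom on recovered reads, 601 with voom on rows with at least 20 reads, and 117 to 276 without a single library. No member passed in the reported fit or in its 6 repeats without a library. Without a trend 1 member passed, where 298 of all tested genes passed. With voom 2 passed, and with voom on rows with at least 20 reads 4 passed. When that last fit left out a library 2 to 5 passed, the 5 being without NC library 3. The share of all rows called in those repeats is not given here. KCNS3, which entered through the group where it is high, was among the members called in the full fit. It was also called without MEOX2 library 1 or NC library 1. Of the other channel lists, 1 gene passed as reported, 0 with a pseudocount of 0.1 or quantile normalization, 2 with either voom fit and 0 to 2 without a library, the 2 being LRRC8C and KCNK1 without NC library 3. The median change of tested members, 0.07, was 0.0182 without a filter and 0.0459 to 0.0971 without a library. Of the 26 tested members, 19 kept their sign in all 17 planned fits; the other 7 had both signs. The cause of these shifts was not tested.

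The replicate number as a block gave 242 genes, 0 members and 0 genes of the other channel lists. Deviations of same-numbered libraries correlated at -0.075, 0.020 and -0.004, and not every library correlated best with its own number. With 3 libraries per group, deviations from a group mean sum to 0, so these correlations cannot decide whether the numbers pair the libraries. Members under 20 reads are too shallow for any comparison.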
